A study of Mus musculus with 45 samples.

Results

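The genes described here encode amino acid transporters of 6 solute carrier (SLC) families: SLC1, SLC3, SLC7, SLC36, SLC38 and SLC43. They were chosen by symbol, as the genes named Slc1a, Slc3a, Slc7a, Slc36a, Slc38a or Slc43a followed by digits, and by a minimum of 10 counts in at least 3 of the 45 libraries. Of 28454 genes listed, 39 carried such a symbol and 25 reached this minimum. The other 14 (Slc1a2, Slc1a3, Slc1a6, Slc3a1, Slc7a8, Slc7a10, Slc7a13, Slc7a14, Slc7a15, Slc36a3, Slc38a3, Slc38a5, Slc38a8 and Slc38a11) had at most 11 counts in any library, and 2 of them, Slc38a5 and Slc38a11, had no count at all.

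Messenger RNA was sequenced from mouse mammary tumour cell lines that all derive from MMTV-cMYC or MMTV-MYC mice, in which a mammary tumour virus promoter drives the oncogene mainly in mammary epithelium. The MYAZ subtype comprises the lines MYAZ16.1e, MYAZ12.3i and MYAZ6.6g, each from a mammary tumour; Myc310 is a single line from a mouse with multiple tumours; LM1, LM2 and LM3 (subtype LM) were recovered from lungs of mice whose mammary fat pad had received Myc310 cells; and LM1-LM, LM2-LM and LM3-LM (subtype LM-LM) were recovered from lungs after a further round of fat pad injection, which for LM1-LM used LM1 cells. A further line, MYAZ12.3i-NDI1, carries NDI1 by its label, the name of the yeast NADH dehydrogenase. Each of the 11 lines had 3 cultures in control medium, and MYAZ16.1e, Myc310, LM1 and LM1-LM had another 3 cultures that spent 6 h in medium free of cysteine and cystine, 24 h after 250000 cells per well had been seeded. The lines from Myc310 onward share 1 ancestor, and in the tests of deprivation a p-value measures the spread between cultures of a line and not between tumours. Comparisons of subtypes with cultures as samples pool the lines of a subtype. Their p-values mix the spread between cultures with that between lines and count cultures as independent.

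Amino acid transporters move their substrates across the plasma membrane or out of lysosomes by exchange, by coupling to sodium or to protons, or by facilitated diffusion. Several SLC7 proteins are light chains that reach the cell surface only when bound to the heavy chain encoded by Slc3a2 (CD98). The pair of Slc7a11 (xCT) and Slc3a2 forms system xc-, which takes up cystine, the oxidised dimer of cysteine, in exchange for glutamate, and so feeds glutathione synthesis. When a cell runs short of an amino acid, the kinase GCN2 favours translation of ATF4, a transcription factor known to bind composite C/EBP-ATF elements near many transporter and amino acid synthesis genes, and Slc7a11 is also a known target of NRF2.

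Promoters are shown for 3 members that rose after deprivation, because the best described ATF4 elements of this family lie in the Slc7a11 promoter. They are RefSeq sequences on GRCm38.p6, which cover 250 bases before and 50 after an annotated start. Of the 25 members, 18 had a promoter in that table, and Slc1a5, Slc7a2, Slc7a3, Slc7a4, Slc7a5, Slc38a1 and Slc43a3 had no entry. Capitals mark matches to TGATGNAA, the core of the C/EBP-ATF composite element, on either strand. Slc7a11 is shown from 250 bases before its start (chr3:50443614-50443863, minus strand), Slc1a4 from 150 bases before to 4 after (chr11:20332710-20332863, minus strand), and Slc7a1 for the 150 bases before its start (chr5:148399905-148400054, minus strand).
Slc7a11: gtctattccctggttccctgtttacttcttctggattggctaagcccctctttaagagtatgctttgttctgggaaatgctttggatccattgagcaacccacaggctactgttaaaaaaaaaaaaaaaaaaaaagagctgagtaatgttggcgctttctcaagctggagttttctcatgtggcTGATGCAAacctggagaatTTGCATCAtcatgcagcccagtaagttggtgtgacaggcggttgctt
Slc1a4: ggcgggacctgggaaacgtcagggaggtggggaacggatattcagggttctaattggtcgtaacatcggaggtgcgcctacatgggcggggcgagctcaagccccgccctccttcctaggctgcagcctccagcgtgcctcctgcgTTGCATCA
Slc7a1: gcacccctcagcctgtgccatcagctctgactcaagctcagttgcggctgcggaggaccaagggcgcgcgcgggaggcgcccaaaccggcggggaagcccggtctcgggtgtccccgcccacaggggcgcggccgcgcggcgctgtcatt
The Slc7a11 promoter held 2 matches, whose first bases lay at -66 and -47 from the start and which read on opposite strands, and the Slc1a4 promoter held 1, at -4. The stretch of Slc7a1 held none. Among all 32851 promoters of the table, 3.97% held at least 1 match and 0.07% at least 2. Slc7a7 was the only other member with matches, 2 in all, at -141 and -1 of 1 promoter. The base at -1 is also at -243 of a second Slc7a7 promoter, whose window overlaps the first. After deprivation Slc7a7, which had few counts, had log2 fold changes of 1.49 in Myc310 and 1.45 in LM1-LM, both called, and of -0.58 in MYAZ16.1e and -0.024 in LM1, neither called. A match describes letters in this window and is not evidence of binding.

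Counts on genes ranged from 19517859 to 29019988 per library (median 22899900), and all pairs of replicates differed by more than counting noise. The control cultures numbered 1 of MYAZ16.1e and of LM1-LM differed more from the other 2 of their group (chi-square per degree of freedom over genes 5.72 and 6.76, and 5.04 and 6.33) than those did from each other (3.39 and 2.94). Without the cultures numbered 1, 14 and 19 members were called after deprivation in these lines, against 15 and 19 with them. Levels are given in CPM, the usual measure of a gene's counts relative to its library's total, after trimmed-mean (TMM) scaling, and levels of different genes are compared only per kilobase of exon. The keratins Krt8 and Krt18 reached at least 217 and 94.0 CPM in each library, whereas Epcam and Cdh1, which define most mammary epithelium, did not exceed 0.802 and 0.284 CPM. Marker levels moved with the comparisons. After deprivation the summed epithelial markers went from 1148-1175 to 1353-1400.3 CPM in MYAZ16.1e, 1383-1399.5 to 1604-1640.1 in Myc310, 1105-1134 to 1383-1419 in LM1 and 1016-1063 to 1317-1347 in LM1-LM, and the fibroblast markers from 7.46-10.1 to 10.7-11.9, 1.73-2.16 to 2.68-2.81, 15.1-17.6 to 10.5-11.4 and 57.6-63.6 to 26.9-29.2 CPM in the same order. In control medium the endothelial markers summed to 3.52-6.56 CPM in MYAZ and 0-0.911 CPM in the lines of Myc310 descent, the leukocyte markers to 4.17-6.31 and 9.53-19.7 CPM, with Ptprc, which defines leukocytes, at 0.233 CPM or less in all libraries, and the fibroblast markers to 7.46-98.1 and 1.73-217 CPM. Over all libraries the fibroblast markers Col3a1, Pdgfra and Pdgfrb reached 199, 58.3 and 38.5 CPM and Col1a1 and Col1a2 3.92 and 1.48 CPM. Dcn, Lum and Thy1 did not exceed 0.1425, 0.0452 and 0.124 CPM. The part of the cell type markers in the results was not tested. CPM values are shares of a library, so that fewer cells expressing a gene and less of its RNA per cell cannot be told apart.

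Cysteine deprivation raised a core of transporter transcripts in all 4 lines tested, and among members with a mean log2 CPM of 3 or more the cystine carrier Slc7a11 rose most, between 7.78-fold and 15.3-fold. Slc1a4, Slc38a7, Slc3a2, Slc7a1, Slc7a5, Slc38a1 and Slc38a2 rose with it in each line. Slc36a4, Slc7a6 and Slc38a10 fell in each line, and Slc43a2 fell in the 3 lines of Myc310 descent. Of the 25 members, 22 passed the filter on low counts in this model (Slc38a4, Slc43a1 and Slc43a3 did not), and 11 of these were higher and 3 lower in each of the 4 lines (edgeR quasi-likelihood test, Benjamini-Hochberg adjusted over 13400 genes, threshold 0.05). Across all genes tested, 19.3% were higher and 19.0% lower in each of the 4 lines. The 11 include Slc1a1, Slc1a7 and Slc7a3, which had few counts. In these 24 libraries the 3 had 10 or more counts in at least 3 libraries only through deprived cultures, so that their rise is not independent of the filter on low counts, and without them 8 of 19 members were higher in each line. The counts of higher and of more than 2-fold higher members in each line include these 3.

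In MYAZ16.1e, 12 of the 22 tested members were higher and 3 lower after deprivation, where 26.6% and 27.1% of all genes were. More than 2-fold increases were met by 10 members and more than 2-fold decreases by 0, against 3.78% and 0.821% of all genes. Myc310 had 14 members higher and 6 lower (background 32.8% and 33.9%), of which 11 and 1 moved more than 2-fold (background 6.93% and 5.44%). LM1 had 12 higher and 8 lower (background 35.8% and 35.3%), with 10 and 3 beyond 2-fold (background 9.06% and 9.21%). The corresponding counts in LM1-LM were 12 and 7 (background 36.5% and 35.9%) and, beyond 2-fold, 11 and 2 (background 9.76% and 10.3%). The share of members called lower was thus near or under the background in LM1 and LM1-LM and under it in MYAZ16.1e and Myc310. The median log2 fold change of the 22 members was 0.56, 0.92, 0.45 and 1.03 in MYAZ16.1e, then Myc310, LM1 and LM1-LM, and that of all genes lay between -0.013 and 0. These medians include Slc1a1, Slc1a7 and Slc7a3, so that they too are not independent of the filter on low counts. Medians without them are not given.

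**Figure D1:**
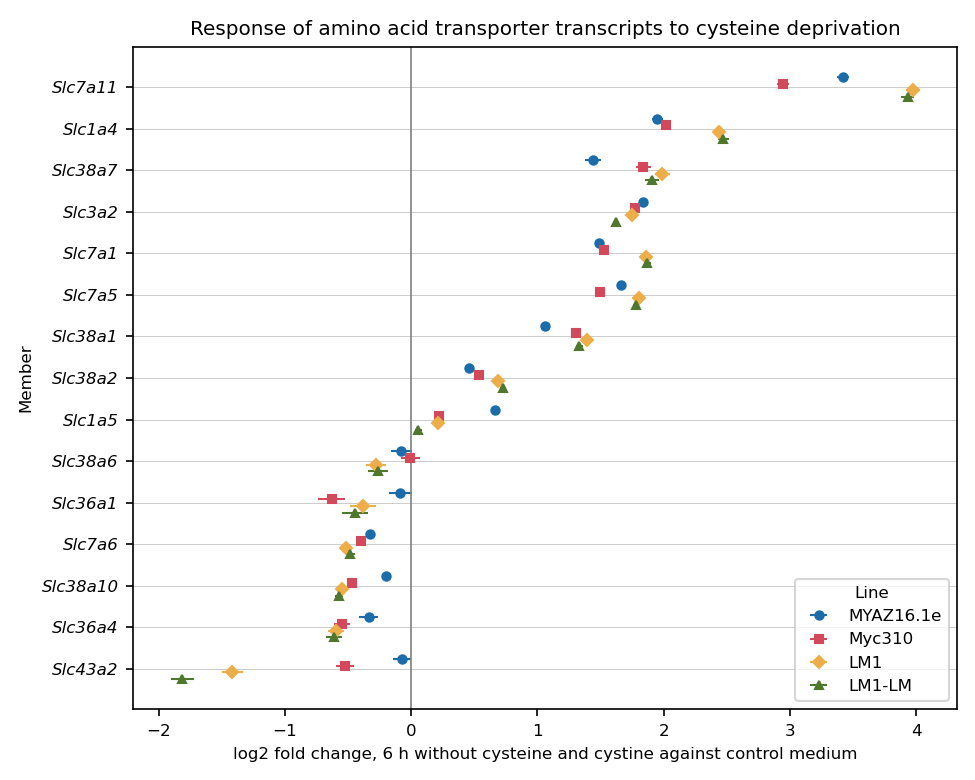
Log2 fold change after 6 h without cysteine and cystine against control medium (x axis) for the 15 members whose mean log2 CPM in the fit was 3 or more (y axis), with 1 symbol per line and bars for 1 standard error. Slc7a11 lies farthest to the right in each line, between 2.94 and 3.98, and Slc43a2 spreads most on the left, from -1.81 in LM1-LM to -0.073 in MYAZ16.1e.

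Both chains of system xc- rose. Slc7a11 (ENSMUSG00000027737; GRCm38, chromosome 3, 49892526 to 50443614, minus strand) encodes the cystine and glutamate exchanger itself. In MYAZ16.1e, Slc7a11 measured 17.8, 17.6 and 16.9 CPM in the control cultures and 188, 184 and 189 CPM in the deprived cultures. Myc310 went from 17.4, 15.97 and 15.6 CPM to 131, 125 and 125 CPM. Control and deprived cultures of Slc7a11 did not overlap, and MYAZ16.1e reached the highest deprived level of the 4 lines. Slc7a11 measured 10.7, 9.98 and 10.7 CPM in control cultures of LM1 and 165, 167 and 148 CPM after deprivation. LM1-LM started at 9.77, 10.8 and 9.61 CPM and reached 145, 151 and 154 CPM. LM1 and LM1-LM therefore began lower than MYAZ16.1e and Myc310 in control medium and ended between the means of these 2 lines. The log2 fold changes of Slc7a11 were 3.42, 2.94, 3.98 and 3.93 in MYAZ16.1e, then Myc310, LM1 and LM1-LM, with standard errors of about 0.049 and an edgeR adjusted p of at most 2.23e-29.

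Slc3a2 (ENSMUSG00000010095; chromosome 19, 8706882 to 8723369, minus strand), the heavy chain that Slc7a11 shares with Slc7a5 and Slc7a6, rose 3.00-fold to 3.59-fold. In MYAZ16.1e, Slc3a2 measured 170.3, 174 and 174 CPM in the control cultures and 622, 627 and 607 CPM in the deprived cultures. For Myc310 the values were 219.8, 219 and 217 CPM before and 745, 764 and 758 CPM after deprivation. Here Myc310 was highest both before and after deprivation. Slc3a2 in LM1 went from 186, 199 and 195 CPM to 633, 642 and 635 CPM. In LM1-LM the control cultures had 192, 198 and 192 CPM of this transcript and the deprived ones 578, 584 and 584 CPM. The log2 fold changes of Slc3a2 spanned only 1.62 to 1.84 (adjusted p at most 3.87e-31), a narrower range than that of Slc7a11. The other heavy chain gene, Slc3a1, which partners the cystine transporter of kidney and gut, had at most 11 counts in a library.

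**Figure D2:**
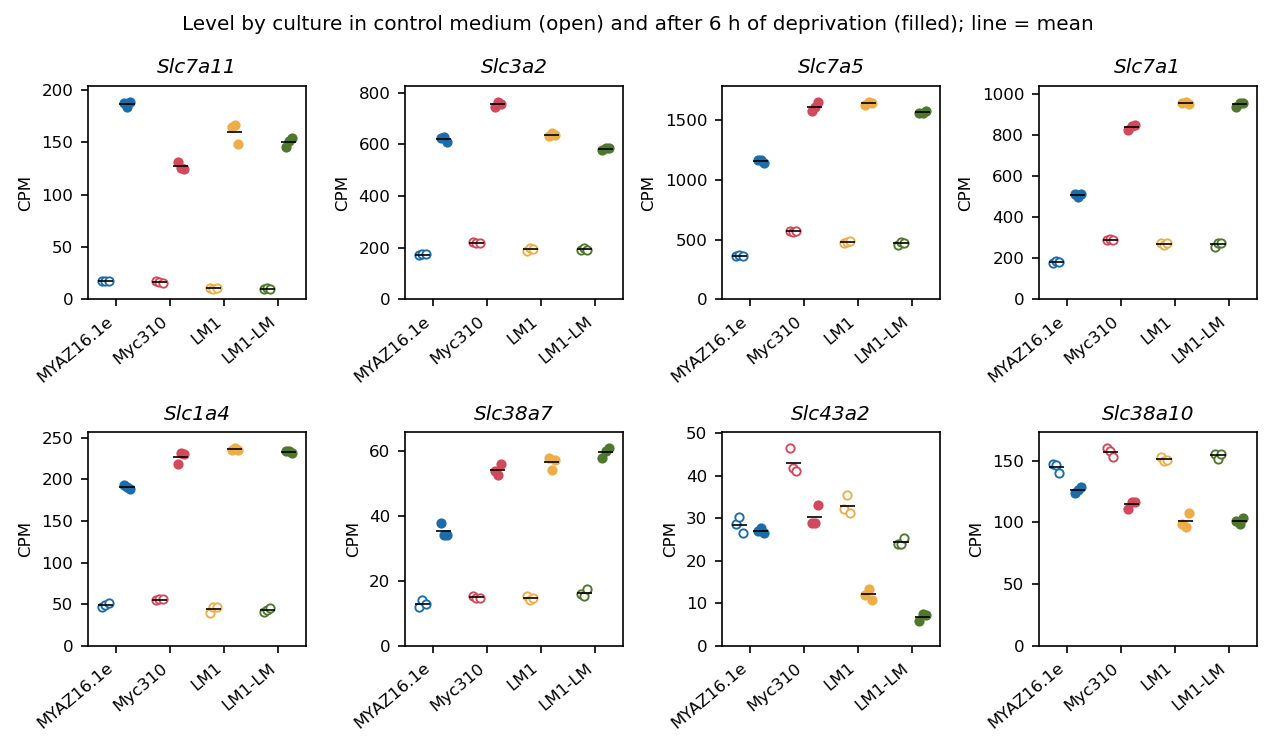
CPM (y axis, linear and starting at 0) of 8 members by line (x axis), with 1 point per culture, open in control medium and filled after 6 h of deprivation, and a short line at the mean of 3 cultures. Deprived and control cultures separate in each line for the 6 members that rose and for Slc38a10, whereas for Slc43a2 they overlap in MYAZ16.1e (28.7, 30.2 and 26.5 CPM against 27.1, 27.6 and 26.6 CPM).

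Among the other light chains, Slc7a5 rose and Slc7a6 fell. Slc7a5 (LAT1; ENSMUSG00000040010; chromosome 8, 121881150 to 121907694, minus strand) exchanges large neutral amino acids such as leucine for intracellular glutamine. In MYAZ16.1e, Slc7a5 measured 360.1, 372 and 361 CPM in the control cultures and 1163, 1164 and 1144 CPM in the deprived cultures. The corresponding values in Myc310 were 574, 561 and 568.5 CPM and 1576, 1614 and 1651 CPM. The increase left MYAZ16.1e well below the other lines. Slc7a5 stood at 473, 483 and 491 CPM in LM1 and at 1631, 1655 and 1646 CPM after deprivation. LM1-LM had 452, 482 and 474 CPM of it in control medium and 1563, 1565 and 1582 CPM without cysteine and cystine. Log2 fold changes of Slc7a5 were 1.49 to 1.80 across the lines (adjusted p at most 5.56e-30).

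Slc7a6 (y+LAT2), which exchanges cationic for neutral amino acids on the same heavy chain, moved the other way. In MYAZ16.1e, Slc7a6 was at 111, 112 and 115 CPM in the control cultures and 92.7, 92.2 and 86.7 CPM in the deprived cultures. Myc310 went from 111, 106 and 103 CPM to 81.5, 82.6 and 80.7 CPM. Its groups did not overlap in either line. Slc7a6 fell in LM1 from 120.0, 116 and 114 CPM to 80.0, 80.3 and 78.9 CPM. LM1-LM cultures held 109, 113 and 116 CPM of Slc7a6 before and 78.8, 79.6 and 77.0 CPM after deprivation. These are log2 fold changes of -0.51 to -0.32 (adjusted p at most 1.14e-09). Slc7a7 (y+LAT1), a related light chain, had few counts. Its counts in control and deprived cultures were 1, 1 and 4 and 6, 5 and 6 in Myc310 (adjusted p = 0.0382) and 14, 16 and 12 and 50, 35 and 26 in LM1-LM (adjusted p = 0.000364). The call in Myc310 was lost without the cultures numbered 1 or 2 (adjusted p = 0.245 and 0.197) and with DESeq2 (adjusted p = 0.0568). Slc7a7 overlaps Oxa1l on the opposite strand, and the strand setting of the counting is not given in the sources used here, so reads from the 2 genes may not have been told apart.

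The neutral exchangers of the SLC1 family differed in size of response. Slc1a4 (ASCT1; ENSMUSG00000020142; chromosome 11, 20302180 to 20332713, minus strand) carries alanine, serine, cysteine and threonine. In MYAZ16.1e, Slc1a4 amounted to 46.7, 49.3 and 51.1 CPM in the control cultures and 193, 191 and 189 CPM in the deprived cultures. For Myc310 the values were 55.1, 55.6 and 55.7 CPM before and 218, 232 and 230.1 CPM after deprivation. Each deprived culture held several times the level of each control culture of its line. Slc1a4 climbed from 39.7, 47.1 and 47.0 CPM to 236, 237 and 235 CPM in LM1. The change in LM1-LM was from 40.9, 42.96 and 45.7 CPM to 234, 235 and 232 CPM. The rise was 3.90-fold in MYAZ16.1e and 5.41-fold in LM1-LM, or 1.95 to 2.47 as log2 fold changes over the 4 lines (adjusted p at most 3.24e-26).

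Slc1a5 (ASCT2), a major importer of glutamine in tumour cells, rose most in MYAZ16.1e, from 155, 158 and 163 CPM to 253, 260.0 and 246 CPM (log2 fold change 0.66, adjusted p = 3.17e-18). In LM1-LM its control cultures had 226, 222 and 225 CPM and its deprived cultures 227, 229 and 227 CPM. That small difference did not pass the threshold (log2 fold change 0.058 with a standard error of 0.028, adjusted p = 0.069). The increases of Slc1a5 in Myc310 and LM1 were 0.22 and 0.22 on the log2 scale. After deprivation the mean levels of Slc1a5 were 253, 259.9, 242 and 228 CPM in MYAZ16.1e, then Myc310, LM1 and LM1-LM.

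The SLC1 carriers of acidic amino acids were close to absent in control medium. Slc1a1 (EAAC1), which takes up glutamate, aspartate and also cysteine, had 0 or 1 counts in each of the 33 control libraries. After deprivation it had 3, 1 and 3 counts in MYAZ16.1e, 5, 3 and 8 in Myc310, 16, 11 and 12 in LM1 and 10, 8 and 10 in LM1-LM. Because these deprived libraries alone brought Slc1a1 into the set, no test of it is given, and at these counts no fold. Slc1a7 (EAAT5), better known from retina, had 6, 6 and 9 counts in control cultures of Myc310 and 110, 120 and 132 after deprivation. The deprived cultures of MYAZ16.1e had 20, 37 and 16 counts of Slc1a7, those of LM1 37, 49 and 51 and those of LM1-LM 62, 73 and 76, against at most 10 in any control culture of the 4 lines. Its deprived and control cultures did not overlap in any line, and because in this model it too reached 10 counts in 3 libraries only through deprived cultures, no test of its rise is given.

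Within SLC38, the family of sodium-coupled neutral amino acid transporters, 6 members were tested and 3 of them, Slc38a7, Slc38a1 and Slc38a2, rose in each line. Slc38a7 (SNAT7; ENSMUSG00000036534; chromosome 8, 95835920 to 95853539, minus strand), which exports glutamine from lysosomes, changed most. In MYAZ16.1e, Slc38a7 came to 11.9, 14.04 and 12.9 CPM in the control cultures and 37.8, 34.0 and 34.1 CPM in the deprived cultures. The corresponding values in Myc310 were 15.4, 14.6 and 14.8 CPM and 53.7, 52.5 and 55.8 CPM. MYAZ16.1e again ended lowest. For LM1 the control values of Slc38a7 were 15.2, 13.96 and 14.6 CPM and the deprived values 57.8, 54.2 and 57.2 CPM. LM1-LM gave 15.9, 15.4 and 17.5 CPM and 57.8, 59.8 and 60.7 CPM. Log2 fold changes of Slc38a7 were 1.44 to 1.99 (adjusted p at most 1.36e-18).

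Slc38a1 (SNAT1), a glutamine importer, rose by 1.06 to 1.39 on the log2 scale and reached 443, 426 and 422 CPM in deprived MYAZ16.1e against 282, 267 and 274 CPM in deprived LM1. Slc38a2 (SNAT2), whose mRNA is a known target of the amino acid response, was already high in control medium, at 489, 513 and 498 CPM in MYAZ16.1e, and rose by only 0.46 to 0.73 on the log2 scale (adjusted p at most 1.04e-16). Slc38a10, whose transport function is less well defined, fell in each line. In MYAZ16.1e, Slc38a10 stood at 148, 146 and 139.9 CPM in the control cultures and 124, 126 and 129 CPM in the deprived cultures. Myc310 went from 160.0, 158 and 153 CPM to 111, 116 and 116 CPM. The decrease was the smaller in MYAZ16.1e. LM1 held 153, 149.8 and 151 CPM of Slc38a10 in control medium and 98.5, 96.0 and 108 CPM after deprivation. In LM1-LM it dropped from 156, 151 and 156 CPM to 101, 98.5 and 104 CPM. Log2 fold changes of Slc38a10 were -0.57 to -0.20 (adjusted p at most 8.32e-06), and the gene overlaps Gm11769 on the other strand. Slc7a11, Slc7a5 and Slc43a2 likewise overlap annotated genes on the other strand, so their counts carry the same limit as those of Slc7a7. Slc38a6 was lower in LM1 (-0.28, adjusted p = 0.00278) and LM1-LM (-0.26, adjusted p = 0.00342, and 0.0961 without the cultures numbered 2). Slc38a9, the arginine sensor of the lysosome, passed the threshold in Myc310 alone (log2 fold change 0.43, adjusted p = 0.00204).

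The cationic amino acid transporters moved in opposite directions. Slc7a1 (CAT1; ENSMUSG00000041313; chromosome 5, 148327410 to 148399904, minus strand), the main importer of arginine and lysine in dividing cells, rose. In MYAZ16.1e, Slc7a1 measured 178, 184 and 181 CPM in the control cultures and 513, 498 and 515 CPM in the deprived cultures. For Myc310 the values were 287, 291 and 287 CPM before and 823, 846 and 851 CPM after deprivation. In this gene the deprived level was lowest in MYAZ16.1e. Slc7a1 passed from 274, 263 and 272 CPM to 954, 962 and 951 CPM in LM1. Values of 255, 272 and 272 CPM in control cultures of LM1-LM became 938, 958 and 957 CPM. The log2 fold changes were 1.48 to 1.87 (adjusted p at most 2.24e-28).

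Slc7a2 (CAT2), by contrast, fell in the lines of Myc310 descent. It had 76, 77 and 65 counts in control cultures of Myc310 and 12, 15 and 14 after deprivation (adjusted p = 3.56e-08). The control cultures of LM1 had 18, 15 and 21 counts and the deprived 4, 7 and 2. For LM1-LM they were 14, 20 and 12 and 3, 0 and 0. In MYAZ16.1e the cultures overlapped on the CPM scale, with 44, 45 and 52 counts of Slc7a2 before and 41, 27 and 41 after deprivation (adjusted p = 0.325). Slc7a3 (CAT3) went from 10, 7 and 10 to 38, 33 and 38 counts in MYAZ16.1e, and from 0, 1 and 0 to 41, 34 and 34 in LM1. Among the 24 libraries of this model only deprived cultures brought Slc7a3 to 10 counts in 3 libraries, and no test of its rise is given. Slc7a4, a relative with no established transport activity, passed the threshold in LM1 alone, with 13, 8 and 6 counts in control and 0, 6 and 0 in deprived cultures (adjusted p = 0.0119). That call was lost without the cultures numbered 1 (adjusted p = 0.244).

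Slc43a2 fell in the lines of Myc310 descent, most in LM1-LM. The gene (LAT4; ENSMUSG00000038178; chromosome 11, 75531694 to 75577575, plus strand) lets branched-chain amino acids and phenylalanine diffuse across the membrane. In MYAZ16.1e, Slc43a2 was found at 28.7, 30.2 and 26.5 CPM in the control cultures and 27.1, 27.6 and 26.6 CPM in the deprived cultures. The corresponding values in Myc310 were 46.5, 41.8 and 41.1 CPM and 28.9, 28.9 and 33.1 CPM. Control and deprived cultures were mixed in MYAZ16.1e and apart in Myc310. Slc43a2 fell in LM1 from 32.2, 35.5 and 31.2 CPM to 12.0, 13.3 and 10.9 CPM. LM1-LM showed the lowest deprived values, 5.77, 7.36 and 7.33 CPM, from 24.0, 23.9 and 25.4 CPM. The log2 fold changes were -0.52, -1.42 and -1.81 in Myc310, LM1 and LM1-LM (adjusted p at most 8.89e-08) and -0.073 in MYAZ16.1e (adjusted p = 0.427).

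Slc36a1 (PAT1) and Slc36a4 (PAT4), proton-coupled carriers found on lysosomes and other internal membranes, were lower as well, Slc36a4 in all 4 lines and Slc36a1 in Myc310, LM1 and LM1-LM. In MYAZ16.1e, Slc36a4 measured 11.5, 11.5 and 11.5 CPM in the control cultures and 9.86, 8.32 and 9.27 CPM in the deprived cultures. Myc310 went from 22.6, 24.0 and 25.9 CPM to 17.3, 16.04 and 16.5 CPM. The MYAZ16.1e level was the lowest in both media. Slc36a4 went from 30.3, 31.6 and 28.1 CPM to 18.6, 19.9 and 19.5 CPM in LM1, and from 28.9, 28.8 and 28.8 CPM to 17.9, 18.8 and 18.4 CPM in LM1-LM. Its log2 fold changes were -0.61 to -0.33 (adjusted p at most 0.000392). In MYAZ16.1e, Slc36a1 had 24.6, 24.6 and 23.5 CPM in the control cultures and 21.7, 24.0 and 23.0 CPM in the deprived cultures. For Myc310 the values were 15.4, 13.5 and 16.7 CPM before and 8.19, 11.1 and 10.4 CPM after deprivation. The groups overlapped in MYAZ16.1e and separated in Myc310. Slc36a1 in LM1 was 15.1, 16.8 and 17.9 CPM before and 11.2, 12.8 and 13.5 CPM after deprivation, and in LM1-LM 17.9, 18.0 and 15.2 CPM and 12.4, 10.5 and 13.7 CPM. Its log2 fold changes were -0.085, -0.63, -0.38 and -0.44 in MYAZ16.1e, then Myc310, LM1 and LM1-LM, of which that of MYAZ16.1e did not pass (adjusted p = 0.467). The difference in response from MYAZ16.1e was -0.29 in LM1 and not called (adjusted p = 0.0785), and that of LM1-LM was not called without the cultures numbered 1 or 2 (adjusted p = 0.0537 and 0.342).

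Whether lines responded to a different extent was tested as an interaction contrast. Slc7a11 rose more in LM1 than in Myc310, the line it descends from, with a difference of log2 fold changes of 1.03 ± 0.079 (SE, adjusted p = 9.34e-11), and less in Myc310 than in MYAZ16.1e, with a difference of -0.48 ± 0.072 (SE, adjusted p = 3.58e-06). Slc1a4, Slc7a1, Slc7a5 and Slc38a2 also rose more in LM1 than in Myc310, by 0.42, 0.33, 0.31 and 0.15, and Slc43a2 fell further, with a difference of -0.89 ± 0.11 (SE, adjusted p = 2.53e-07). These 6 were the members called of 22 (27.3%), where 24.5% of all genes were. Slc38a2 was not called without the cultures numbered 3 (adjusted p = 0.0584). For Slc3a2 the difference in response between LM1 and Myc310 was -0.025 ± 0.032 (SE, adjusted p = 0.653).

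Against MYAZ16.1e, 10 members differed in the response of Myc310, 16 in that of LM1 and 18 in that of LM1-LM, where 40.3%, 52.2% and 54.8% of all genes did. The 16 include Slc7a3 and the 18 include Slc7a3 and Slc1a7, which entered this model only through deprived cultures. The counts for LM1 and LM1-LM are therefore not independent of the filter on low counts. These 3 comparisons share the MYAZ16.1e libraries. Slc43a2 showed the widest gap among well expressed members, -1.74 ± 0.12 (SE, adjusted p = 1.52e-13) for LM1-LM. Slc1a5 rose less than in MYAZ16.1e, with differences of -0.44 (Myc310), -0.45 (LM1) and -0.61 (LM1-LM). Slc7a1 and Slc1a4 rose more in LM1, by 0.38 ± 0.036 (SE, adjusted p = 2.49e-10) and 0.48 ± 0.060 (SE, adjusted p = 5.14e-08). The heavy chain Slc3a2 rose less in LM1 by a margin, -0.085, that was not called without any 1 replicate number, the highest adjusted p being 0.208. Each of these subtypes is represented by 1 line, so line and subtype cannot be told apart.

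Between LM1-LM and LM1, edgeR called no member and 0.769% of all genes. At an unadjusted p under 0.05 there were 6 members, and DESeq2 called 2, Slc1a5 and Slc3a2. Their differences, LM1-LM less LM1, were -0.16 ± 0.040 (SE, adjusted p = 0.0557) and -0.13 ± 0.033 (SE, adjusted p = 0.0583). The difference for Slc7a11 was -0.042 with a standard error of 0.086.

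Per kilobase of exon, Slc7a5 was the most abundant member in both media, at 98.3 CPM per kb in control MYAZ16.1e and 312 after deprivation. In LM1 these levels of Slc7a5 were 130.1 and 443 CPM per kb. Slc3a2 followed among deprived cultures, with 175 CPM per kb in MYAZ16.1e and 180.4 in LM1. Slc1a4 moved from rank 8 to rank 5 in both lines, at 48.6 and 60.2 CPM per kb after deprivation. Slc7a11, which had the largest fold change of the members with a mean log2 CPM of 3 or more, stood at 13.4 CPM per kb in deprived MYAZ16.1e, far under its partner Slc3a2. The 25 members together took 2005 ± 26.7 CPM of MYAZ16.1e control libraries and 4370.0 ± 48.7 CPM of deprived ones (SD, n = 3). The ratio of deprived to control sums was 2.18, 2.20, 2.39 and 2.34 in MYAZ16.1e, then Myc310, LM1 and LM1-LM.

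Genes outside the 6 families give the setting. Of 24 tested genes of the amino acid response, among them Asns and Trib3, 24, 24, 24 and 23 were higher after deprivation in MYAZ16.1e, then Myc310, LM1 and LM1-LM, and none lower. Of 12 tested NRF2 targets, 5, 4, 5 and 5 were higher and 1, 5, 5 and 5 lower, where 26.6% to 36.5% of all genes were higher and 27.1% to 35.9% lower.

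In control medium, the lines of Myc310 descent differed from the MYAZ lines in a small set of transporters. Slc38a1 was lower by about 2-fold, Slc1a4 was lower in the lung-derived lines, and Slc7a1 and Slc1a5 were higher. With each of 30 cultures as a sample, 6 of 23 tested members were higher and 6 lower in Myc310 than in MYAZ, against 23.8% and 27.1% of all genes. LM had 7 higher and 8 lower (background 30.3% and 30.5%), and LM-LM 6 and 6 (background 30.5% and 32.3%), shares near the background. In these libraries Slc7a3, Slc7a4, Slc43a1 and Slc43a3 reached the count minimum through MYAZ libraries and Slc1a7 through those of Myc310 descent, so that their direction is not independent of the filter on low counts. Without them, 3, 4 and 3 of 18 members were lower and 6, 6 and 5 higher in Myc310, LM and LM-LM. With counts summed per line, so that the line is the sample, edgeR called 4, 4 and 8 of 24 tested members for Myc310, LM and LM-LM, where 8.92%, 23.6% and 26.4% of all genes were called. The 8 include Slc38a4 and Slc43a1, which entered through MYAZ libraries in the same way, and without such members 6 of 18 were called for LM-LM. Slc7a1, Slc1a5 and Slc38a1 passed in all 3 of these comparisons by line, which share the MYAZ lines. Myc310 is 1 line, and its spread is there taken from the other lines.

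Slc38a1 measured from 203 to 211 CPM (median 207) in the 9 MYAZ cultures. Myc310 had 98.9, 104 and 100.3 CPM. Cultures of LM ranged from 81.1 to 138 CPM (median 107) and those of LM-LM from 80.5 to 106 CPM (median 103). No culture of the Myc310 descent reached the lowest MYAZ culture, and the 3 MYAZ lines were close to each other, with means between 206 and 209 CPM. LM lines varied more, from 84.1 to 136 CPM. Summed per line, the log2 differences of Slc38a1 from MYAZ were -1.02 for Myc310, -0.91 for LM and -1.09 for LM-LM (edgeR adjusted p = 0.0376, 0.00568 and 0.00244). An exact two-sided permutation test of line means returned p = 0.1 in both LM and LM-LM, compared with MYAZ, which is the smallest that 3 lines against 3 allow.

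Slc7a1 was higher in the lines of Myc310 descent. MYAZ cultures ranged from 161 to 184 CPM (median 175). The Myc310 cultures were at 287, 291 and 287 CPM. LM cultures spanned values from 245 to 274 CPM (median 261) and LM-LM cultures from 234 to 288 CPM (median 272). All cultures of Myc310 descent exceeded all MYAZ cultures. By line, Slc7a1 was higher than MYAZ by 0.74, 0.59 and 0.60 on the log2 scale (adjusted p = 0.00495, 0.00128 and 0.00112).

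For Slc1a5, MYAZ cultures lay from 142 to 163 CPM (median 150.3). Myc310 measured 224, 221 and 216 CPM. The LM range ran from 188 to 217 CPM (median 193) and the LM-LM range from 188 to 230.5 CPM (median 219). Again there was no overlap with MYAZ. The log2 differences of Slc1a5 by line were 0.56, 0.41 and 0.49 (adjusted p = 0.0179, 0.00725 and 0.00313). Slc7a5 was higher in Myc310, at 574, 561 and 568.5 CPM, than in MYAZ cultures, which ranged from 360.1 to 439.6 CPM (median 398). By line its difference passed for Myc310 (0.53, adjusted p = 0.0407), and not for LM (0.29, adjusted p = 0.0526) or LM-LM (0.26, adjusted p = 0.0701). The line means of Slc1a5, Slc7a1, Slc7a5 and Slc38a1 did not overlap between the 7 lines of Myc310 descent and the 3 MYAZ lines, and the same held for Slc38a6 and Slc38a10. Full separation fixes the p of an exact two-sided permutation test at 0.0167, the smallest this design allows, and the 7 lines share an ancestor and are not independent.

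Slc1a4 varied more among MYAZ lines than the members above. Cultures of MYAZ16.1e had 46.7, 49.3 and 51.1 CPM, against 73.9, 76.4 and 73.3 CPM in MYAZ12.3i and 86.8, 81.8 and 85.6 CPM in MYAZ6.6g. Myc310, at 55.1, 55.6 and 55.7 CPM, fell inside that range. LM cultures ran from 30.4 to 47.1 CPM (median 36.5) and LM-LM cultures from 31.1 to 45.7 CPM (median 40.9), and the highest LM culture was just above the lowest of MYAZ16.1e. By line, the log2 differences from MYAZ were -0.85 for LM (adjusted p = 0.0188) and -0.84 for LM-LM (adjusted p = 0.0182). In Myc310 the difference was -0.31 (adjusted p = 0.547).

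**Figure D3:**
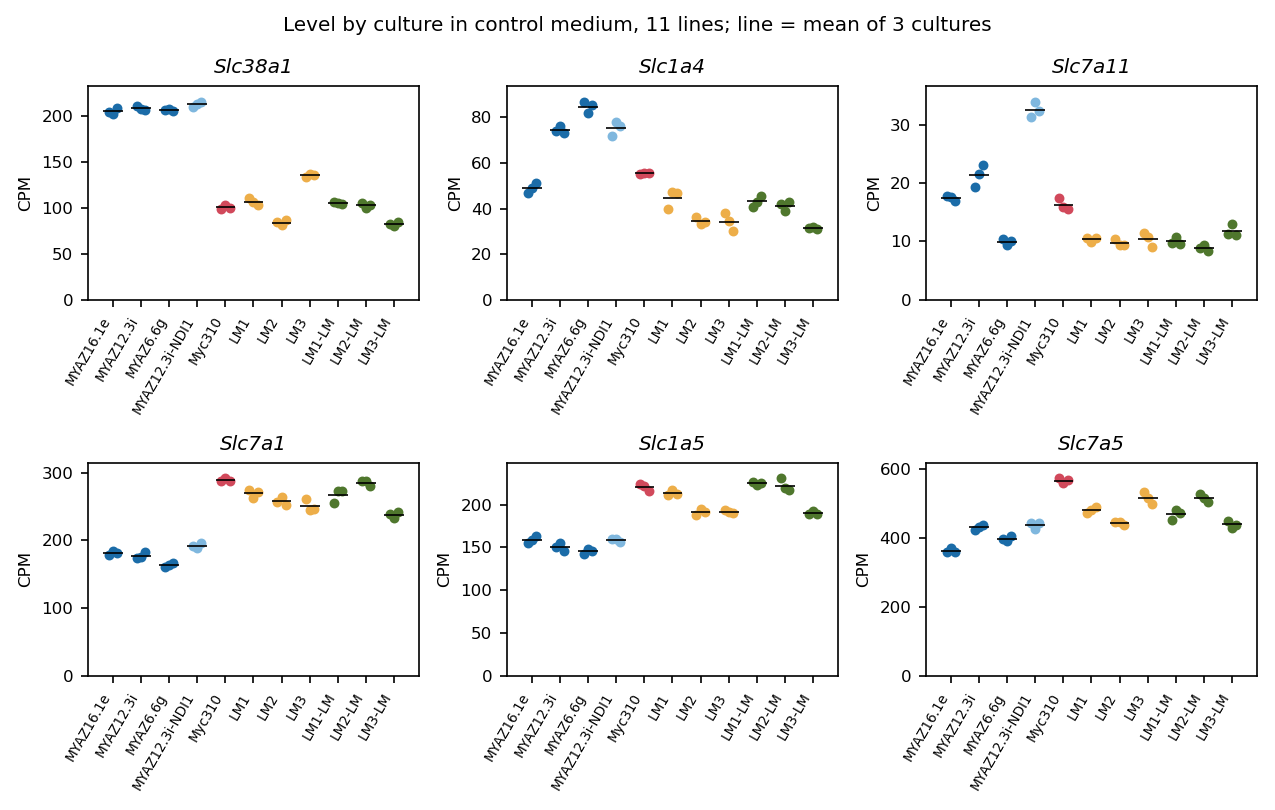
CPM (y axis, linear and starting at 0) of 6 members in control medium by line (x axis), with 1 point per culture, a short line at the mean of 3 cultures, and 1 colour per subtype (MYAZ12.3i-NDI1 in light blue). Slc38a1 sits between 203 and 211 CPM in MYAZ and at or under 138 CPM in the lines of Myc310 descent, whereas Slc7a11 in MYAZ6.6g lies among the lung-derived lines.

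The chains of system xc- overlapped between MYAZ and the lung-derived lines. Slc7a11 had 17.8, 17.6 and 16.9 CPM in MYAZ16.1e, 19.4, 21.6 and 23.1 CPM in MYAZ12.3i and 10.4, 9.32 and 10.1 CPM in MYAZ6.6g. LM cultures ranged from 9.07 to 11.4 CPM (median 10.5) and LM-LM cultures from 8.31 to 12.9 CPM (median 9.77). The level in MYAZ6.6g was therefore inside the LM range, while MYAZ16.1e, MYAZ12.3i and Myc310, at 17.4, 15.97 and 15.6 CPM, were above it. With cultures as samples the log2 difference of LM from MYAZ was -0.67 (adjusted p = 0.000123). With lines as samples it was -0.65 (adjusted p = 0.105), and the exact permutation test over line means gave p = 0.3. Slc3a2 ranged from 170.3 to 223 CPM (median 189) in MYAZ, from 174 to 214 CPM (median 195) in LM and from 173 to 218 CPM (median 192) in LM-LM. Its groups overlapped, and the log2 differences from MYAZ by line were 0.030 ± 0.11 and 0.017 ± 0.11 (SE).

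Other members are given as means of lines (SD over 3 lines). Slc36a4 averaged 17.5 ± 6.46 CPM over the MYAZ lines, 28.4 ± 5.09 CPM over the LM lines and 23.0 ± 9.11 CPM over the LM-LM lines, with Myc310 at 24.2 CPM. MYAZ16.1e was the lowest of the MYAZ lines in Slc36a4, at 11.5 ± 0.0190 CPM (SD, n = 3). Slc36a1 averaged 19.5 ± 4.25 CPM over the MYAZ lines, 16.7 ± 0.0675 CPM over the LM lines and 17.6 ± 1.00 CPM over the LM-LM lines, with Myc310 at 15.2 CPM. Slc38a10 averaged 126 ± 15.8 CPM over the MYAZ lines, 149 ± 2.72 CPM over the LM lines and 154 ± 4.88 CPM over the LM-LM lines, with Myc310 at 157 CPM. Slc38a10 was called by line for LM-LM (0.30, adjusted p = 0.0366) and not for LM (0.27, adjusted p = 0.0573). Slc38a6 averaged 13.0 ± 2.68 CPM over the MYAZ lines, 18.3 ± 1.28 CPM over the LM lines and 20.3 ± 1.87 CPM over the LM-LM lines, with Myc310 at 18.5 CPM. This carrier was also called by line for LM-LM (0.64, adjusted p = 0.0196). Slc38a2 averaged 519 ± 48.2 CPM over the MYAZ lines, 539.6 ± 64.1 CPM over the LM lines and 479 ± 83.2 CPM over the LM-LM lines, with Myc310 at 457 CPM. Slc38a7 averaged 15.8 ± 3.48 CPM over the MYAZ lines, 14.5 ± 1.78 CPM over the LM lines and 16.04 ± 0.215 CPM over the LM-LM lines, with Myc310 at 14.9 CPM. Slc38a9 averaged 5.22 ± 1.15 CPM over the MYAZ lines, 4.45 ± 0.251 CPM over the LM lines and 5.59 ± 1.02 CPM over the LM-LM lines, with Myc310 at 4.19 CPM. Slc43a2 averaged 32.5 ± 5.87 CPM over the MYAZ lines, 35.8 ± 3.75 CPM over the LM lines and 30.03 ± 8.91 CPM over the LM-LM lines, with Myc310 at 43.2 CPM. Slc7a6 averaged 105 ± 11.6 CPM over the MYAZ lines, 105 ± 17.1 CPM over the LM lines and 102 ± 16.3 CPM over the LM-LM lines, with Myc310 at 106 CPM. The differences of Slc36a1, Slc36a4, Slc38a2, Slc38a7, Slc38a9, Slc43a2 and Slc7a6 from MYAZ did not pass by line in LM or LM-LM.

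Between LM and Myc310, 4 of 23 members were called with cultures as samples, where 4.94% of all genes were. Slc7a11 was lower in LM (log2 difference -0.67 ± 0.19, SE, adjusted p = 0.0322), with Myc310 at 17.4, 15.97 and 15.6 CPM above each LM culture. Slc1a4 and Slc7a5 were lower as well, with log2 differences of -0.55 and -0.23 (adjusted p = 0.0379 and 0.032). The light chain Slc7a7 was higher in LM (adjusted p = 0.00284). These calls were fragile: 0 or 1 member was called without the cultures of any 1 replicate number. With counts summed per line, where Myc310 is a single sample, edgeR called none, and 1 member had an unadjusted p under 0.05. LM-LM and LM differed in no member (edgeR), against 0.768% of all genes. There were 4 members at an unadjusted p under 0.05, Slc38a1, Slc38a2, Slc38a9 and Slc43a2, and DESeq2 called none. Leaving out LM1 or LM2 gave 1 called member, and leaving out LM3-LM gave 5.

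Several sparsely expressed members were detected mainly in some lines. Slc43a1 (LAT3), a carrier of branched-chain amino acids, had 79, 87 and 120 counts in MYAZ12.3i and 76, 95 and 82 in MYAZ12.3i-NDI1. In each of the other lines, deprived cultures included, it had at most 6 counts. Its neighbour Slc43a3, linked to purine uptake, had 18, 12 and 12 counts in MYAZ12.3i, 6, 21 and 10 in its NDI1 derivative and 6, 3 and 9 in MYAZ6.6g, and at most 2 elsewhere. The pair lies on chromosome 2 within the interval from 84838850 to 84958509 (GRCm38).

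Slc7a2 varied within the lung-derived lines. It had 18, 15 and 21 counts in LM1, 75, 66 and 73 in LM2 and 149, 133 and 135 in LM3. The LM-LM lines followed a similar order, with 14, 20 and 12 in LM1-LM, 30, 32 and 34 in LM2-LM and 151, 166 and 167 in LM3-LM. Its 3 LM-LM lines did not overlap with each other, nor did its 3 LM lines. Slc7a7 showed the same order, from 18, 11 and 16 counts in LM1 and 14, 16 and 12 in LM1-LM to 69, 92 and 84 in LM3 and 70, 65 and 46 in LM3-LM. Levels of cell type markers also differed between these lines. The 10 epithelial markers, led by Krt8 and Krt18, summed to 1105-1134 CPM in LM1, 2028-2103 in LM2, 2047-2144 in LM3, 1016-1063 in LM1-LM, 1139-1173 in LM2-LM and 2424-2464 in LM3-LM. The 8 fibroblast markers summed to 15.1-17.6 CPM, 59.1-63.1, 115-125, 57.6-63.6, 34.1-36.2 and 216-217 in the same order, and the 6 alveolar markers found were highest in LM3, at 5.14-6.63 CPM, with Sftpc at 0.0758 CPM or less. The fibroblast markers Dcn, Lum and Thy1 stayed at 0.1425 CPM or less in all libraries. The part of the cell type markers in the levels of Slc7a2 and Slc7a7 was not tested. Myc310 had 1, 1 and 4 counts of Slc7a7. Slc7a4 was highest in MYAZ16.1e, at 34, 37 and 68 counts, and had 1, 2 and 1 in Myc310 and 0, 0 and 0 in LM2. Slc38a4 had up to 14 counts in MYAZ cultures and none in Myc310, LM1, LM3 or the LM-LM lines.

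**Figure D4:**
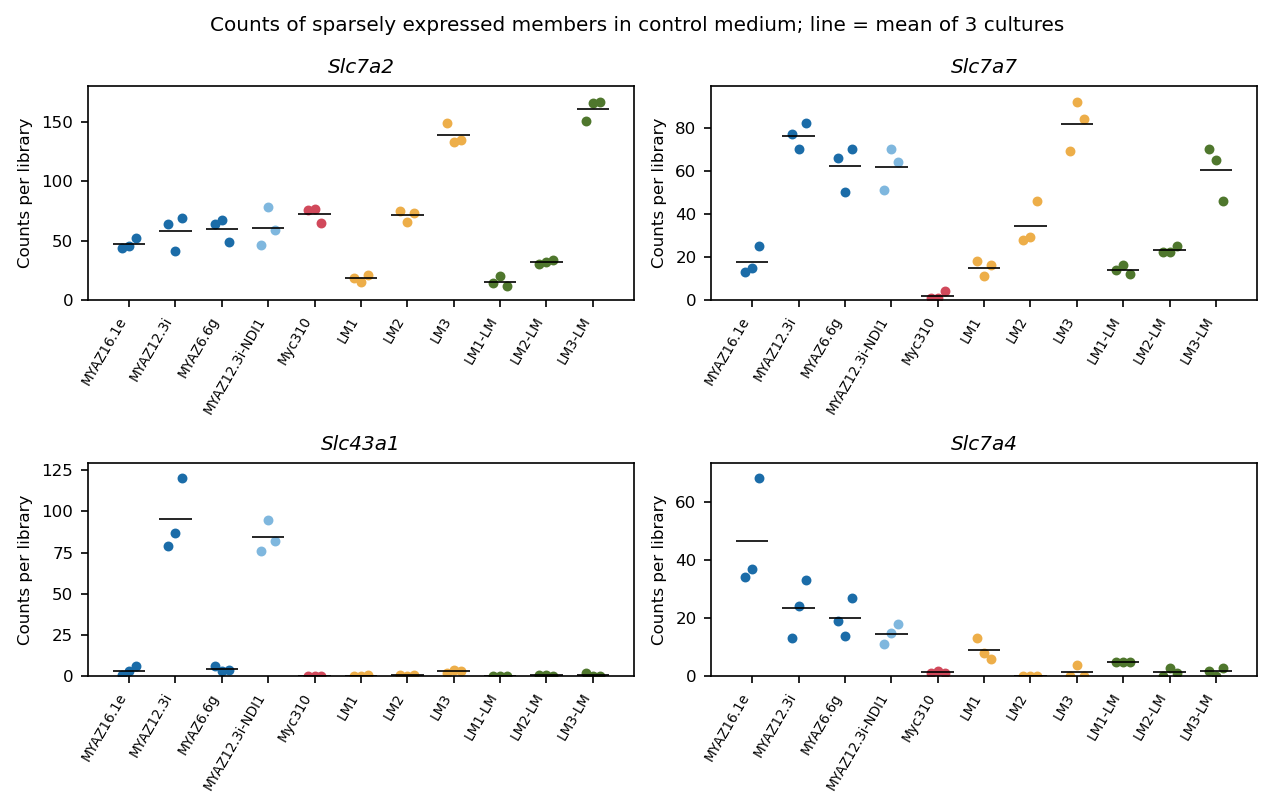
Counts per library (y axis, starting at 0; library totals differ by less than 1.5-fold) of 4 sparsely expressed members in control medium by line (x axis), with 1 point per culture and a short line at the mean of 3 cultures. Slc43a1 exceeds 6 counts only in MYAZ12.3i and MYAZ12.3i-NDI1, and Slc7a2 is highest in LM3 and LM3-LM.

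MYAZ12.3i-NDI1 differed from MYAZ12.3i in 5 of 22 members tested, where 17.4% of all genes differed. Slc7a11 was higher, with 31.4, 33.9 and 32.4 CPM against 19.4, 21.6 and 23.1 CPM (log2 difference 0.60 ± 0.065, SE, adjusted p = 3.56e-05). The cultures did not overlap, and the level in MYAZ12.3i-NDI1 was the highest of the 11 lines in control medium. Slc3a2, its heavy chain, was at 215, 215 and 209 CPM and 214, 223 and 220.0 CPM (adjusted p = 0.273). The other calls were small. Slc38a10 had 129, 126 and 129.6 CPM against 115, 117 and 117 CPM. Slc7a1 had 191, 189 and 196 CPM against 174, 175 and 183 CPM. Slc7a6 was lower, at 98.7, 108 and 95.9 CPM against 109.6, 112 and 112 CPM. Their log2 differences were 0.13, 0.11 and -0.14 (adjusted p = 0.0082, 0.0183 and 0.0284), and that of Slc38a2 was 0.083 (adjusted p = 0.0379). Leaving out the cultures of 1 replicate number at a time left 1 to 3 members called.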

How the data were processed

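RNA was sequenced as poly(A)-selected, directional paired-end libraries. The deposited count table holds whole-number counts per gene for 45 libraries, which the authors obtained with STAR and RSEM on GRCm38. Whether the values were rounded is not given in the sources used here, nor is the strand setting of the counting. The counts were used as deposited. Totals of 19517859 to 29019988 per library limit the precision of members with few counts.

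Counts were scaled by TMM, filtered with filterByExpr and tested with edgeR 4.0.16 (glmQLFit, glmQLFTest, R 4.3.3), with p-values adjusted by the Benjamini-Hochberg method over all genes tested and a threshold of 0.05. SE is the log2 fold change divided by the square root of F. The deprivation model held 24 libraries in 8 groups, the model of control medium 30 libraries by subtype, and the NDI1 comparison 6 libraries. CPM used TMM factors over all 45 libraries. The edgeR contrasts of deprivation in LM1, the response of LM1 against MYAZ16.1e, LM against MYAZ, and NDI1 were checked on simulated counts. The simulation took cultures as independent, without a spread between lines. Counts summed per line, voom, DESeq2 and the permutation tests were not checked in this way. Alternatives were RLE scaling, no filter, DESeq2 1.42.0, a replicate block, voom (limma 3.58.1) with line as a random block, counts summed per line, and leaving out replicates or lines.

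Values of each culture are given for Slc7a11, Slc3a2 and the 4 largest increases and 3 largest decreases per deprivation comparison, and the 3 largest differences in each direction per comparison of lines, among called members whose groups did not overlap and whose mean log2 CPM was 3 or more. Other per-culture values were chosen after the values were seen. The members and the gene lists were chosen with earlier results of these data known. Epithelial markers summed to 339 to 2464 CPM.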

Additional observations from a re-analysis of the deposited data

Results flagged for a closer look

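Of 63 groups of 4 to 10 samples examined for a value far from the rest, 2 held one, where about 1 in 20 groups does so by chance. Among the 9 control libraries of LM-LM, Slc1a7 was highest in LM3-LM, at 1.077 CPM in 1 culture, with the others at or under 0.532 CPM. Among those of LM, Slc38a10 was lowest in 1 culture of LM3, at 141 CPM, with the others between 149 and 153 CPM.

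The other results are the members whose response to deprivation differed between lines by the interaction test (edgeR quasi-likelihood test, Benjamini-Hochberg adjusted). Values are differences of log2 fold changes. Against MYAZ16.1e, the response of Myc310 differed in Slc7a7 (2.07), Slc1a5 (-0.44), Slc36a1 (-0.54), Slc38a1 (0.25), Slc7a11 (-0.48), Slc7a2 (-2.02), Slc38a7 (0.40), Slc43a2 (-0.45), Slc7a5 (-0.17) and Slc38a10 (-0.27). The response of LM1 differed from that of MYAZ16.1e in Slc1a5 (-0.45), Slc3a2 (-0.085), Slc1a4 (0.48), Slc38a2 (0.23), Slc7a4 (-2.15), Slc38a1 (0.34), Slc7a11 (0.56), Slc7a3 (4.27), Slc7a2 (-1.72), Slc7a6 (-0.19), Slc38a7 (0.55), Slc43a2 (-1.34), Slc7a5 (0.14), Slc7a1 (0.38), Slc36a4 (-0.26) and Slc38a10 (-0.35). In LM1-LM it differed in Slc7a7 (2.03), Slc1a5 (-0.61), Slc1a7 (3.00), Slc3a2 (-0.21), Slc1a4 (0.52), Slc36a1 (-0.36), Slc38a2 (0.27), Slc38a1 (0.27), Slc7a11 (0.51), Slc7a3 (1.74), Slc7a2 (-3.39), Slc7a6 (-0.16), Slc38a7 (0.47), Slc43a2 (-1.74), Slc7a5 (0.12), Slc7a1 (0.39), Slc36a4 (-0.28) and Slc38a10 (-0.37). These comparisons share the MYAZ16.1e libraries. Between LM1 and Myc310, the members were Slc1a4 (0.42), Slc38a2 (0.15), Slc7a11 (1.03), Slc43a2 (-0.89), Slc7a5 (0.31) and Slc7a1 (0.33). Slc7a3 and Slc1a7 entered this model only through deprived cultures, so their calls are not independent of the filter on low counts. Control counts were 0, 1 and 0 for Slc7a3 in LM1 and 0, 1 and 2 for Slc1a7 in LM1-LM. Some of the calls listed were lost. Among members with few counts, Slc7a7 in Myc310 was not called with no filter or without the cultures numbered 1 or 2 (adjusted p = 0.051, 0.244 and 0.183). Without the cultures numbered 1 or 3, Slc7a2 (0.0547 and 0.154) and Slc7a4 (0.39 and 0.0674) were not called in LM1, with differences of -1.16 for Slc7a2 without number 3 and -1.078 for Slc7a4 without number 1, nor were Slc1a7 (0.0703 and 0.346) and Slc7a3 (0.0786 and 0.135) in LM1-LM. Slc38a2 between LM1 and Myc310 was lost without the cultures numbered 3 (0.0584). Slc36a1 in LM1-LM was not called without the cultures numbered 1 or 2 (adjusted p = 0.0537 and 0.342), the difference without number 2 being -0.20. Slc36a4 was not called in LM1 or LM1-LM with no filter (adjusted p = 0.11 and 0.0675) or without the cultures numbered 1 (0.291 and 0.191) or 3 (0.0574 and 0.0911), with a difference of -0.17 in LM1 without number 1. Slc7a6 was lost in LM1 without number 1 (0.0573) and in LM1-LM without number 2 (0.0766). Slc3a2 in LM1 was lost with no filter (0.21) and without any 1 replicate number (0.071 to 0.208). A positive value means a larger rise or a smaller fall in the first line. Each subtype had 1 deprived line, so line and subtype cannot be told apart.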

How the results depend on the processing

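Of 149 alternative counts of called members, 127 were within 1.5 times the count reported and 22 were not. No called difference changed direction. For the response of LM1-LM against LM1, with no member called, RLE scaling, no filter and DESeq2 each called 2, and 1 was called with only the libraries compared. In control medium, Myc310 against MYAZ had 12 members called, 5 with voom and line as a random block, and 4 with counts summed per line. LM against MYAZ had 15, and 4 with counts summed per line. LM against Myc310 had 4, 1 without the filter, 0 with voom or summed counts, 1 without LM2, 2 without LM3, and 0 to 1 without 1 replicate number. LM-LM against LM had 0, but 1 without LM1 or LM2 and 5 without LM3-LM. MYAZ12.3i-NDI1 had 5, and 1 to 3 without 1 replicate number. The cause of these shifts was not tested, apart from the smaller number of samples in those that leave out or sum cultures.

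Differences that changed sign were all uncalled. For Slc7a11 in Myc310 against MYAZ the log2 difference turned to -0.0060 (RLE), -0.0058 (DESeq2), -0.063 (without replicate 1; the highest without 1 number was 0.053) and -0.26 (without MYAZ6.6g). In LM-LM against LM it turned to 0.051 (without replicate 1; the lowest without 1 number was -0.076), 0.0082 (without LM3), 0.0022 (without LM1-LM) and 0.086 (without LM2-LM), and in the response of LM1-LM against LM1 to 0.078 (without replicate 2; the lowest was -0.15). For Slc3a2 in LM against MYAZ it turned to -0.0027 (RLE), -0.0026 (DESeq2), -0.071 (without MYAZ16.1e), -0.0074 (without MYAZ6.6g) and -0.065 (without LM3). In LM-LM against MYAZ, Slc3a2 turned to 0.011 (no filter), 0.0043 (without replicate 2; the lowest was -0.012), 0.017 (summed per line), 0.090 (without MYAZ12.3i), 0.00069 (without LM1-LM) and 0.046 (without LM3-LM). In LM-LM against LM it turned to 0.058 (without LM3) and 0.038 (without LM3-LM).

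Samples with the same replicate number did not deviate together (correlations of deviations between -0.055 and 0.045), so the numbers were not treated as pairs. With the replicate number as a block, 1 member was called for the response of LM1-LM against LM1, and the other counts were 15, 20, 20 and 19 after deprivation in MYAZ16.1e, then Myc310, LM1 and LM1-LM, each within 1.5 times those reported.

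Members with few counts (Slc1a1, Slc38a4, Slc43a1, Slc43a3, Slc7a4) support no fold change at this depth. The response differences printed for Slc7a4 and Slc7a3 in LM1, Slc1a7 and Slc7a2 in LM1-LM, and Slc7a7 in Myc310 involve groups with very few counts. Their sizes are not supported either. For 9 of the 25 members an annotated gene lies on the opposite strand. Each subtype had 1 deprived line, and the lines of Myc310 descent share an ancestor.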

Other observations

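The calls for amino acid transporters outside the 6 families were as follows. Of 16 tested genes of 28 listed, 3, 3, 4 and 4 were higher and 7, 9, 9 and 9 lower after deprivation in MYAZ16.1e, then Myc310, LM1 and LM1-LM. Of all genes, 26.6% to 36.5% were higher and 27.1% to 35.9% lower, beside 18.8% to 25% and 43.8% to 56.2% of these transporters. The glycine transporter Slc6a9 rose, with log2 fold changes of 3.02, 2.71, 3.18 and 3.22 in these lines. Ctns, which exports cystine from lysosomes, rose by 0.55, 0.51, 0.71 and 0.66. Slc6a6, the taurine transporter, had log2 fold changes of -0.67, -0.85, -0.97 and -1.02, and the mitochondrial carriers Slc25a22 (glutamate) and Slc25a13 (aspartate and glutamate) had -0.53, -1.26, -1.87 and -2.005 and -0.59, -0.93, -0.95 and -1.04. Mfsd12, needed to import cysteine into lysosomes and melanosomes, was at 0.020, -1.04, -1.50 and -1.81, and its value in MYAZ16.1e did not pass the threshold (adjusted p = 0.858, edgeR).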
